A study of Mus musculus with 16 samples.

Results

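The experiment asked what Cluster 1 adds to cells that already overexpress Cluster 2. RNA from 4TO7 cells, a mouse mammary carcinoma line kept in 10% serum, was hybridised to 2-colour Agilent arrays against a reference RNA pooled from 11 mouse cell lines. The comparison took the effect of Clusters 1+2 over its control, subtracted the effect of Cluster 2 over its own control, and is called here the difference of effects. It used 8 of the 16 arrays of the series, 2 in each of 4 groups. The group Hygro vec held cells infected with the empty pMSCV hygro vector, and the group Cluster 2 held cells overexpressing the Cluster 2 miRNAs. Hygro vec + Puro vec held cells with both empty pMSCV vectors, called the double vector control here, and Clusters 1+2 held cells overexpressing the miRNAs of both clusters. All 8 samples carried Cy3, with repeat A of every group on slide 1 and repeat B on slide 2. The design calls repeats A and B biological replicates, and no label says whether they were separate infections, so the p-values measure only the spread between these arrays. A further 4 arrays, on another slide and with the sample in Cy5, gave the effect of Cluster 1 alone over its Puro vec control.

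The miR-200 family is a set of small RNAs made in epithelial cells from a pair of genomic clusters. Its members pair through their seed, the bases at positions 2 to 8, with messenger RNAs such as those of Zeb1 and Zeb2, repressors of E-cadherin that drive epithelial cells towards a mesenchymal state. Loss of the family accompanies this transition in carcinomas, and adding it back raises epithelial junction genes. The mature sequences of the 5 members, from RefSeq on mouse build GRCm38.p6, are shown because their seeds fall into 2 groups, and each cluster carries both. Seeds are in capitals.
miR-200a-3p: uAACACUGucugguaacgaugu
miR-141-3p: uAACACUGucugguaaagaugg
miR-200b-3p: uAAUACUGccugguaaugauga
miR-200c-3p: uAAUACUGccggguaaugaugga
miR-429-3p: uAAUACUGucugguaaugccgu
The seed AACACUG is shared by 2 members and AAUACUG by 3, and the change between them is U4C, counted from the 5′ end of the miRNA with the AAUACUG seed given first. All 5 lie on the minus strand. The chromosome 4 cluster holds miR-200b (chr4:156055685-156055706), miR-200a (chr4:156054911-156054932) and miR-429 (chr4:156053916-156053937). The chromosome 6 cluster holds miR-200c (chr6:124718324-124718346) and miR-141 (chr6:124717917-124717938). The labels do not say which of them is Cluster 1, and the levels of the miRNAs themselves were not analysed here.

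Values are log2 ratios of sample over reference on each array, and an effect is the difference between the means of 2 groups of 2 arrays. A gene was called when its adjusted p was under 0.05 in limma's moderated test fitted to all 16 arrays. Of 18821 genes tested, 1188 (6.31%) had a called difference of effects, 553 higher (2.94%) and 635 lower (3.37%) than Cluster 2 alone would give. The median over all genes was 0.0037, and 94 genes were higher and 105 lower by at least 2-fold. Of the called genes, 1130 were measured on every array, and in all 1130 the difference had the same sign on both slides. The calls were made on these same arrays, so that agreement was nearly fixed in advance and is no separate support. In 946 of the 1188 the probe was well above background on all 8 arrays. Clusters 1+2 against the double vector control called 4704 genes (24.9%), 2285 higher (12.1%) and 2419 lower (12.8%), and Cluster 2 against Hygro vec called 535 (2.84%), of which 333 were higher (1.77%) and 202 lower (1.07%). Clusters 1+2 set directly against Cluster 2, without the controls, called 3004 (15.9%), 1426 higher (7.56%) and 1578 lower (8.37%). The median standard error of the difference of effects was 0.137, against 0.0963 for an effect of Cluster 2, so a typical 95% interval reached 0.297 to each side. Median centring of the arrays in place of loess moved the median over all genes to -0.17, and the calls to 306 higher and 2082 lower. The deposited processed values gave 117 higher and 226 lower.

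Between 46.4% and 69.3% of probes were well above background in the sample channel of these 8 arrays, and 335 to 1675 marked spots per array were set missing. Retaining those spots left 272 calls, and 265 of the 1188 genes were among them. The double vector control differed from Hygro vec at 7 genes (0.0372%), 6 higher (0.0319%) and 1 lower (0.00531%). That count was 348 without Hygro vec repeat A and 114 without repeat A of the double vector control. The reference channel alone, which should carry no effect, gave 1 call of a difference of effects, in Krt7.

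**Figure D1:**
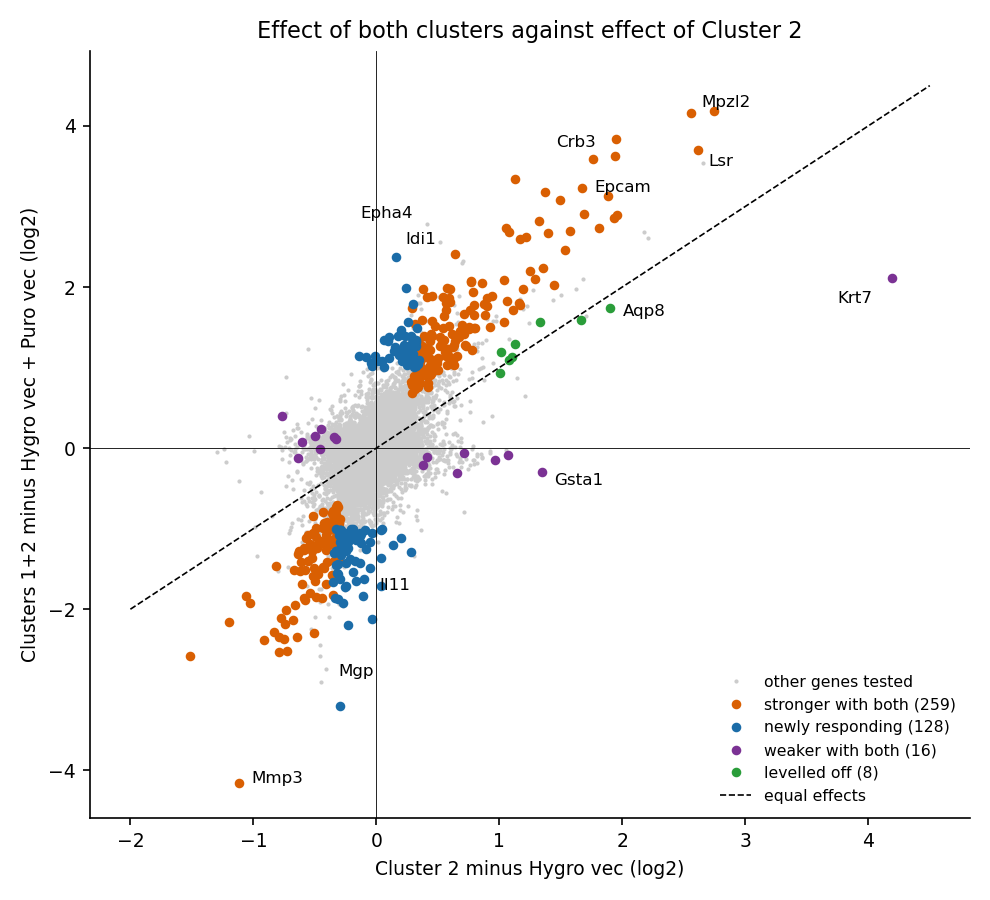
Each point is a gene, with the effect of Cluster 2 over Hygro vec on the horizontal axis and the effect of Clusters 1+2 over the double vector control on the vertical axis, both in log2, and the dashed line marks equal effects. Coloured points are the 4 classes, 259 stronger with both, 128 newly responding (moved by Clusters 1+2 and not by Cluster 2), 16 weaker and 8 levelled off, and most coloured points lie farther from 0 on the vertical axis than the dashed line. Krt7 rests on 1 array of the double vector control.

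Genes that moved with Clusters 1+2 and not with Cluster 2 were sought first, and are called newly responding here. A gene was placed in this class if Clusters 1+2 moved it at least 2-fold and the difference of effects was called in that direction, while Cluster 2 was not called and its 95% interval lay within 1.5-fold of no change. The class held 128 genes (0.68% of those tested), 55 up and 73 down, and 87 of them were well above background on all 8 arrays. Over the class the median effect in the direction of the class was 1.18 with Clusters 1+2 and 0.23 with Cluster 2, and the rule itself used both. The rule did not use Cluster 1 alone, which against its own Puro vec control was called in the same direction in 34 of the 128 and in the opposite direction in 3. Of all genes, Cluster 1 alone was called higher in 4.89% and lower in 3.42%. The thresholds ran through a continuum: Snorc (-1.001) and Add2 (-1.002) lay just inside the 2-fold limit for Clusters 1+2, and Angptl2 (-0.997) and Car12 (0.998) just outside.

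Il11, an interleukin of the IL-6 family, read 2.51 and 2.46 in Hygro vec, 2.37 and 2.38 with Cluster 2, 2.50 and 2.31 in the double vector control, and 0.59 and 0.55 with Clusters 1+2. The first 3 groups lay together, and both arrays of Clusters 1+2 lay far under all of them. The difference of effects for Il11 was -1.73 (95% interval -1.97 to -1.50, adjusted p = 5.01e-06), and its probe lies at chr7:4347807-4347866 in build mm7, the build of the probe positions in the files. Cluster 1 alone also lowered Il11, with effects of -1.26 against its own control and -0.28 against the other Puro vec control. Sema6d, a transmembrane semaphorin, read 1.29 and 1.24, 0.88 and 1.12, 1.26 and 1.23, and -0.64 and -0.72 in Hygro vec, Cluster 2, the double vector control and Clusters 1+2. Only the arrays with both clusters lay under the reference RNA, and the difference of effects for Sema6d was -1.66 (adjusted p = 9.76e-06), with an effect of Cluster 1 alone of -0.95. Scara5, a scavenger receptor that takes up ferritin, had a difference of -1.56 and an effect of Cluster 1 alone of -0.61. A second probe for Scara5 gave -0.15, so its call holds for the brighter probe alone.

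Among regulators inside the cell, Id2, which blocks basic helix-loop-helix transcription factors, read -0.44 and -0.43 in Hygro vec, -0.68 and -0.65 with Cluster 2, -0.97 and -0.90 in the double vector control, and -3.22 and -3.03 with Clusters 1+2. Both arrays with both clusters were the lowest by a wide margin, and the controls themselves were apart, with the double vector control under Hygro vec on both slides. The difference of effects for Id2 was -1.96 (-2.25 to -1.67, adjusted p = 5.81e-06), and the effect of Cluster 1 alone was -0.51 with its own control and 0.37 with the other. Qk, an RNA-binding regulator of splicing, read -0.46 and -0.56 in Hygro vec, -0.75 and -0.76 with Cluster 2, -0.37 and -0.49 in the double vector control, and -2.25 and -2.04 with Clusters 1+2. Its difference of effects was -1.47 (adjusted p = 2.1e-05). For Qk 2 other probes, above background on all 8 arrays, gave -0.60 and -0.54 with Clusters 1+2 effects of -0.82 and -0.67, which would miss the 2-fold limit, and a dim probe gave 0.31. Lrrc75b, a leucine-rich repeat gene, had a difference of -1.46. Of the genes raised in the class, Abcg2, a drug efflux transporter, showed the largest difference, 2.21 (1.84 to 2.58, adjusted p = 1.37e-05). Abcg2 read -1.96 and -1.74 in Hygro vec, -1.74 and -1.64 with Cluster 2, -2.17 and -1.99 in the double vector control, and 0.27 and 0.31 with both clusters. The other 3 groups lay close together and both arrays with both clusters far over them, and 1 array of each vector control was not well above background. Adgrg1, an adhesion receptor named here after its values were seen, showed the largest fall of the class. It read 2.19 on the single Hygro vec array left, 1.85 and 1.95 with Cluster 2, 2.01 and 1.88 in the double vector control, and -1.33 and -1.18 with Clusters 1+2. Its difference of effects was -2.90 (-3.26 to -2.56, adjusted p = 5.01e-06). Outside the class, Epha4, an ephrin receptor, had the largest positive difference of all, 2.37 (1.98 to 2.76, adjusted p = 1.25e-05), and a second probe for it gave 0.23 (adjusted p = 0.421).

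**Figure D2:**
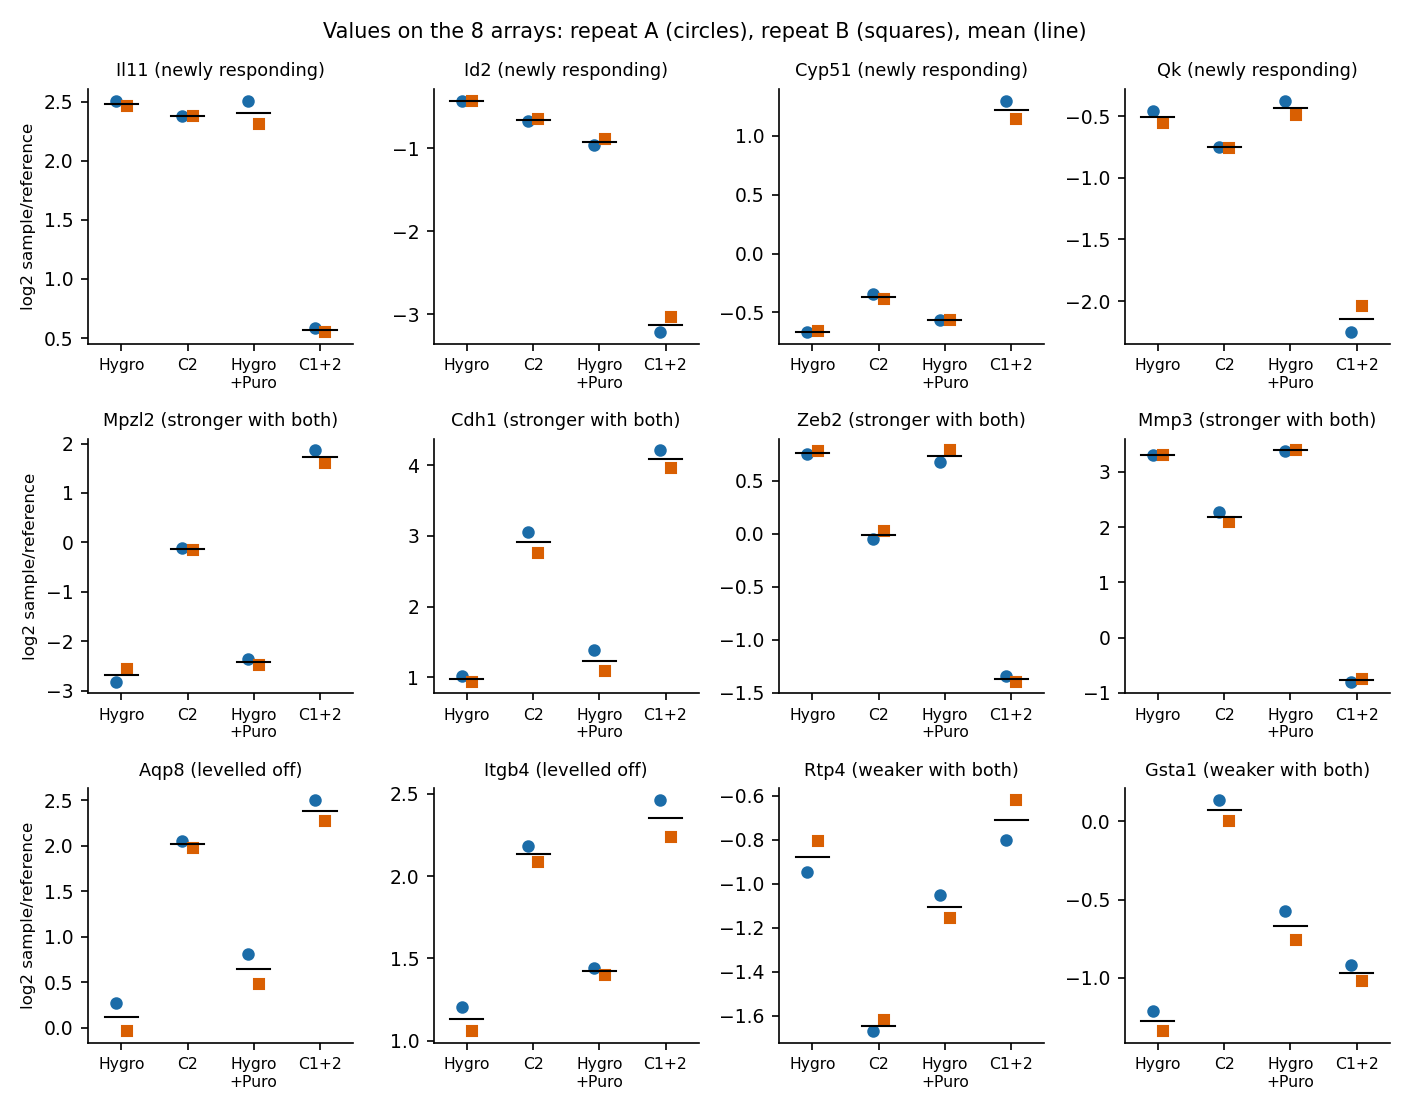
Log2 ratio of sample over reference on each of the 8 arrays for 12 genes, with circles for repeat A, squares for repeat B and a line at the mean of each group; each panel has its own vertical scale. In the top row only Clusters 1+2 stands apart, in the middle row Cluster 2 lies between its control and Clusters 1+2, and in the bottom row Aqp8 and Itgb4 are about as high over their controls with 1 cluster as with both.

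Genes that make cholesterol were examined as a list. Cholesterol is built from acetyl-CoA through mevalonate, isoprenoid units, squalene and lanosterol, and the transcription factor Srebf2 turns on nearly every enzyme of the route when sterols are low. Of 32 genes tested in the list of cholesterol and fatty acid synthesis, 27 had a called higher difference of effects and 0 a lower one, against 2.94% and 3.37% of all genes, and the median was 0.95 against 0.0037. Cluster 2 alone raised 8 of the 32 and Clusters 1+2 raised 30. Cluster 1 alone raised 19 and lowered 0 against its own Puro vec control, with a median of 0.35, and raised 10 against the other Puro vec control. Of the 32, 11 were newly responding and 8 stronger with both. Over 9 other settings the number called higher ran from 14 to 27, with 0 lower in each, and the median from 0.65 to 1.00.

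Along the route, Hmgcs1, which makes HMG-CoA, read -1.70 and -1.61 in Hygro vec, -1.20 and -1.21 with Cluster 2, -1.65 and -1.57 in the double vector control, and 0.23 and 0.33 with Clusters 1+2. The groups did not overlap except for the controls, Cluster 2 stood a little over them, and both clusters stood far over everything else. The difference of effects was 1.44 (1.18 to 1.70, adjusted p = 2.11e-05). Mvk, mevalonate kinase, had 1.10, and Mvd, which decarboxylates mevalonate diphosphate, had 1.11. Idi1, which interconverts the isoprenoid units, read -0.69 and -0.66, -0.01 and -0.06, -0.65 and -0.70, and 1.73 and 1.73 in Hygro vec, Cluster 2, the double vector control and Clusters 1+2. Its difference of effects of 1.77 (1.47 to 2.07, adjusted p = 1.45e-05) was the highest of the list. The files place the Idi1 probe on chromosome 2 and RefSeq places the gene on chromosome 13, so signal from a related copy cannot be told apart, and a second Idi1 probe gave a difference of 1.62.

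After squalene, Cyp51, the lanosterol demethylase, read -0.67 and -0.66 in Hygro vec, -0.34 and -0.39 with Cluster 2, -0.56 and -0.57 in the double vector control, and 1.30 and 1.14 with Clusters 1+2. Cluster 2 was above both controls by a small margin that was not called (effect 0.30, adjusted p = 0.11), and the arrays of both clusters lay well over all others. The difference of effects for Cyp51 was 1.49 (1.22 to 1.76, adjusted p = 2.1e-05). Msmo1, a methylsterol oxidase, had 1.46 (adjusted p = 5.01e-06), and Hsd17b7, a sterone reductase, had 1.22. Of the regulators, Srebf2 had 0.70 (0.48 to 0.91, adjusted p = 0.000986), and Insig1, which retains the Srebf2 protein in the endoplasmic reticulum, had 1.23. Srebf1, the relative that favours fatty acid genes, had 0.15 (-0.08 to 0.38, adjusted p = 0.484). Of the genes of fatty acid synthesis, Fasn had 0.31 (adjusted p = 0.109), Acaca 0.30 (adjusted p = 0.129) and Elovl6 0.39 (adjusted p = 0.098), none of them called. Acly, which makes cytosolic acetyl-CoA, had 0.79 (adjusted p = 0.00262), Acss2, which does so from acetate, had 0.52 (adjusted p = 0.0228), and the desaturases Scd1 and Scd2 had 0.69 and 1.28 (adjusted p = 0.00821 and 5.14e-05).

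The promoter of Hmgcs1 is shown because it is the single promoter of the 23 sterol-list genes with a RefSeq entry that held the 9-letter sterol element TCACNCCAC, searched on both strands in the 250 bases before each start. That is 4.35% of the list, against 0.969% of the 12179 tested genes with a promoter. The 250 bases lie at chr13:119690101-119690350 on the plus strand of GRCm38.p6, and the match within them is in capitals.
Hmgcs1 promoter: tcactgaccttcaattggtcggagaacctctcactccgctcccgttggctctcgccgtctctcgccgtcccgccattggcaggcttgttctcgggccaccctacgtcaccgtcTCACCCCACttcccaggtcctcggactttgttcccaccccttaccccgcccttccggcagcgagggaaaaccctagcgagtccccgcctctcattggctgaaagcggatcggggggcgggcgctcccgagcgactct
A match is a description of the letters and not of binding, and promoters without these letters say nothing about Srebf2.

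**Figure D3:**
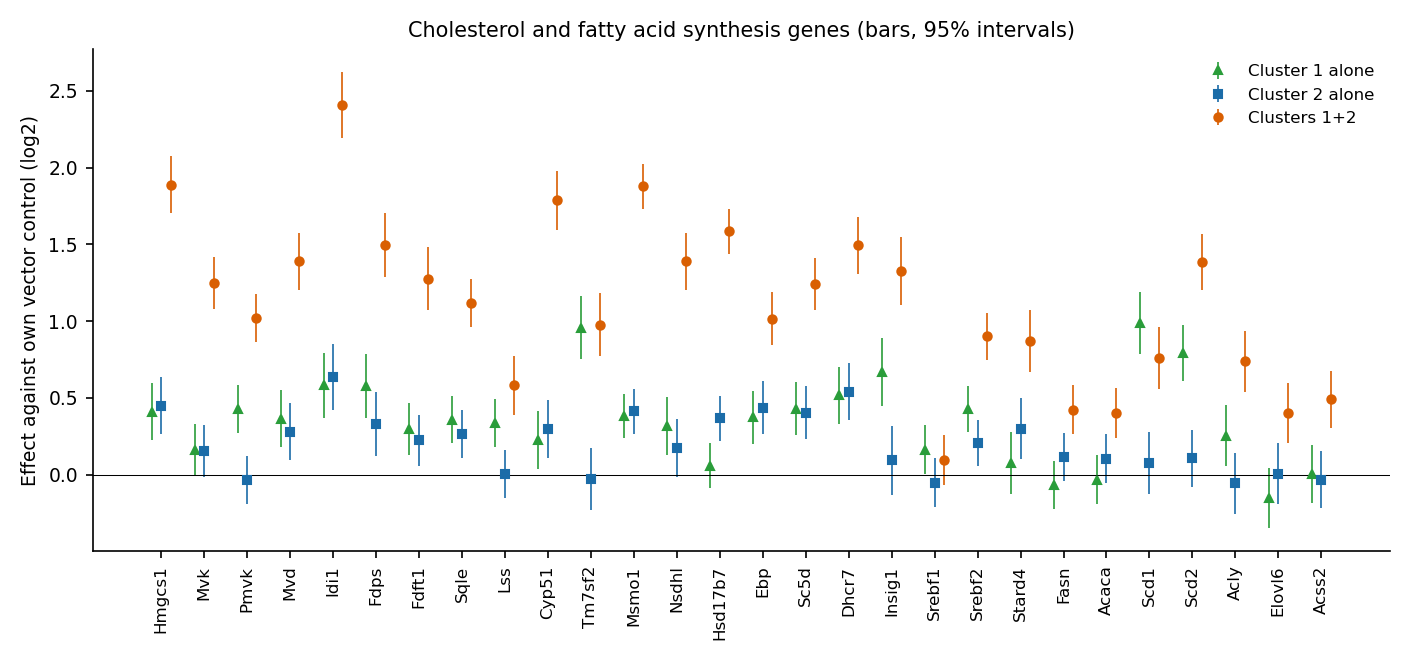
Effect over its own vector control in log2 for 28 genes of the cholesterol and fatty acid list, ordered along the pathway, with triangles for Cluster 1 alone, squares for Cluster 2 alone, circles for Clusters 1+2 and bars for 95% intervals. The circles lie above the squares in all 28 genes shown and above the triangles in 26; Cluster 1 was measured with the other dye on another slide.

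A second set of genes had responded to Cluster 2 and went further with both. This class, in which Cluster 2, Clusters 1+2 and the difference of effects were all called in 1 direction, held 259 genes (1.38%), 153 up and 106 down. Of the 535 genes called with Cluster 2, these 259 went further and 16 had a called difference in the opposite direction. That balance was not stable: it was 147 and 222 with median centring, 170 and 252 without Hygro vec repeat A, and 150 and 227 without Cluster 2 repeat A. The class had a median effect of 0.52 with Cluster 2 and 1.34 with both. It held 107 genes when the 8 arrays were fitted alone, 59 with the deposited processed values and 110 without Hygro vec repeat B.

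Epithelial junction genes were followed through this class and beyond it. List counts from here on stand against 2.94% of all genes called higher and 3.37% called lower in the difference of effects. Cdh1, E-cadherin, the adhesion molecule of adherens junctions, had effects of 1.93 with Cluster 2 and 2.85 with both, a difference of 0.92 (0.53 to 1.31, adjusted p = 0.00791). Epcam, an epithelial adhesion molecule, read -3.31 and -3.31 in Hygro vec, -1.69 and -1.59 with Cluster 2, -3.50 and -3.02 in the double vector control, and -0.04 and -0.01 with Clusters 1+2. The controls overlapped each other, and Cluster 2 and Clusters 1+2 formed separate levels with no overlap. The difference for Epcam was 1.56 (1.05 to 2.08, adjusted p = 0.00155), equal to a 2.96-fold gain over what Cluster 2 alone gave. In the adherens junction list 3 of 15 genes were called higher and 0 lower, the other being Ajuba, a LIM protein at these junctions (0.77, adjusted p = 0.00401). The median of that list was 0.23, and over the 9 other settings 0 to 4 were higher and 0 to 1 lower.

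Tight junctions seal the space between epithelial cells, and 7 of the 21 genes tested in their list were called higher and 0 lower, with a median of 0.31 and 1 to 9 higher over the 9 other settings. Mpzl2, an epithelial junction adhesion protein, read -2.82 and -2.57 in Hygro vec, -0.12 and -0.16 with Cluster 2, -2.36 and -2.48 in the double vector control, and 1.87 and 1.61 with Clusters 1+2. The controls were alike, and each added cluster formed its own level. Its difference of effects was 1.60 (standard error 0.159, adjusted p = 8.02e-05), and a second probe gave 0.45 (adjusted p = 0.147). Lsr, a receptor that organises tricellular contacts, had effects of 2.62 with Cluster 2 and 3.71 with both, a difference of 1.09 (adjusted p = 0.00207). Cldn4, a claudin, read -0.04 and 0.22, 1.02 and 0.19, 0.05 and -0.05, and 2.65 and 2.48 in Hygro vec, Cluster 2, the double vector control and Clusters 1+2. No Hygro vec array was well above background, repeat B of Cluster 2 lay within the range of Hygro vec and repeat A above it, and Cldn4 fell into no class although its difference was 2.04 (1.39 to 2.70, adjusted p = 0.00164). Ocln, occludin, was well above background on no array of either control, and was at least 2.21-fold higher with Clusters 1+2 than in the double vector control (adjusted p = 9.22e-06 in that comparison). Such a bound sets the bright group against the dimmest signal that counted as above background.

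Desmosomes, which anchor keratin filaments, had 6 of 18 genes higher and 1 lower, against 1 to 6 and 0 to 2 over the 9 other settings. Dsp, desmoplakin, read -0.50 and -0.61, 0.89 and 0.74, -0.37 and -0.57, and 2.74 and 2.68 in the usual order of groups. The steps from control to Cluster 2 to both clusters were each larger than the spread between repeats, and the difference was 1.81 (1.51 to 2.10, adjusted p = 1.25e-05). Pkp2, plakophilin 2, had 1.60 (adjusted p = 5.25e-06), and Perp, a tetraspan desmosome protein, had 0.93 (adjusted p = 0.000115). Krt18 had 0.52 and Krt19 1.37, both called, whereas Krt8, the partner of Krt18 in simple epithelia, had 0.20 (-0.12 to 0.51, adjusted p = 0.499). The gene called lower in this list was Krt7, a keratin of simple epithelia. Krt7 read -2.10 and -1.90 in Hygro vec, 2.17 and 2.21 with Cluster 2, 2.20 and 2.24 with Clusters 1+2, and 0.11 on the single array of the double vector control that was left. A second Krt7 probe gave a difference of 0.03 (adjusted p = 0.981), and the reference channel by itself moved by 1.67 at the brighter probe. Removing Krt7 leaves 0 genes of the list called lower.

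Polarity genes divide an epithelial cell into apical and basal sides. This list, which also holds epithelial splicing and trafficking genes, had 10 of 27 higher and 0 lower, with a median of 0.24. Only 9 of the 27 were well above background in all 4 groups. The 10 include Esrp1 and Mal2, which passed the filter only through Clusters 1+2, so the count is partly built in. Over the 9 other settings 3 to 10 were higher and 0 to 1 lower. Crb3, an apical determinant, read -1.04 and -1.04 in Hygro vec, 0.98 and 0.81 with Cluster 2, -1.02 and -1.07 in the double vector control, and 2.60 and 2.58 with Clusters 1+2. The controls agreed closely, and the effect was 1.94 with Cluster 2 and 3.63 with both clusters, so the further increase was nearly as large as the first. The difference was 1.69 (1.43 to 1.95, adjusted p = 8.84e-06). Hygro vec was not well above background for Crb3, so Cluster 2 was at least 2.74-fold higher (adjusted p = 9.01e-08 for that effect), and the difference cannot be read as exact. The Crb3 probe lies at chr17:55276994-55277053 in mm7.

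Within the same list 4 genes were newly responding. Esrp1, an epithelial splicing regulator, was well above background only with Clusters 1+2, where it read 1.39 and 1.18. It was at least 1.84-fold higher than in the double vector control and at least 1.74-fold higher than with Cluster 2. Mal2, a transcytosis protein, read 2.18 and 2.36 with both clusters and between -0.06 and 0.41 on the other 6 arrays, of which none was well above background. The bound for Mal2 was at least 2.99-fold over the double vector control and at least 2.69-fold over Cluster 2. Esrp1 and Mal2 passed the filter only through the group in which they are high, so their values are a description and their place in the class rests on that group. Grhl2, a transcription factor of epithelial identity, had a difference of 1.02 (adjusted p = 0.000299), and Llgl2, a basolateral polarity protein, of 0.92 (adjusted p = 0.005). St14, the membrane protease matriptase, had 1.61 (adjusted p = 0.00436), with the double vector control spread from -2.11 to -1.20.

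Zeb1, Zeb2 and Snai1 bind E-boxes with the letters CACCTG. The promoters of Crb3, Epcam and Cldn4 are shown because their genes were among the called junction and polarity genes and held this motif in the 250 bases before the start, on GRCm38.p6. Matches are in capitals, as CACCTG or, on the other strand, CAGGTG.
Crb3 promoter: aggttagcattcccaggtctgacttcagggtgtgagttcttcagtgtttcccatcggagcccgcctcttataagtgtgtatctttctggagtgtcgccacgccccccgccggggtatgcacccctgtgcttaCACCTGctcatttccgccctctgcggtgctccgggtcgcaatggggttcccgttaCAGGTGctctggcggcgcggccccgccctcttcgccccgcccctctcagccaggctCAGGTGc
Epcam promoter: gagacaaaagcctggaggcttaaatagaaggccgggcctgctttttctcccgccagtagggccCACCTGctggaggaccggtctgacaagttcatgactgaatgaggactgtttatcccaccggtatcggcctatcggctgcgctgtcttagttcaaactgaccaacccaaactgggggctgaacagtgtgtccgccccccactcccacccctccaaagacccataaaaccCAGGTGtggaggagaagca
Cldn4 promoter: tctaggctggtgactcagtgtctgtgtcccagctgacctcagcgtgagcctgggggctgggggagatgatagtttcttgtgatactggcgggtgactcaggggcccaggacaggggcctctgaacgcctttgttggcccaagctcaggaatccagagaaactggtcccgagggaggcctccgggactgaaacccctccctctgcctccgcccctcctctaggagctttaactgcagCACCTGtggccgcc
They lie at chr17:57061951-57062200 (plus strand, 3 matches), chr17:87635729-87635978 (plus strand, 2 matches) and chr5:134946935-134947184 (minus strand, 1 match). Of promoters in the table, 17.1% of 27025 held the motif, and of genes tested 15.9% of 12179. Among genes called higher 85 of 402 held it (21.1%), and among those called lower 68 of 460 (14.8%). It was present in 10 of 17 promoters of the polarity list and 6 of 18 of the tight junction list. Of these genes, Ap1m2, Grhl3 and Ildr1 were not tested in the difference of effects. High shares were not particular to these lists: 5 of 9 in the class weaker with both, 3 of 6 in the hemidesmosome list and 6 of 15 in the integrin list. The mesenchymal list had 0 of 12. Among newly responding genes the motif was in 11 of 39 promoters of those that rose and 7 of 53 of those that fell. These shares are descriptions without a test.

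**Figure D4:**
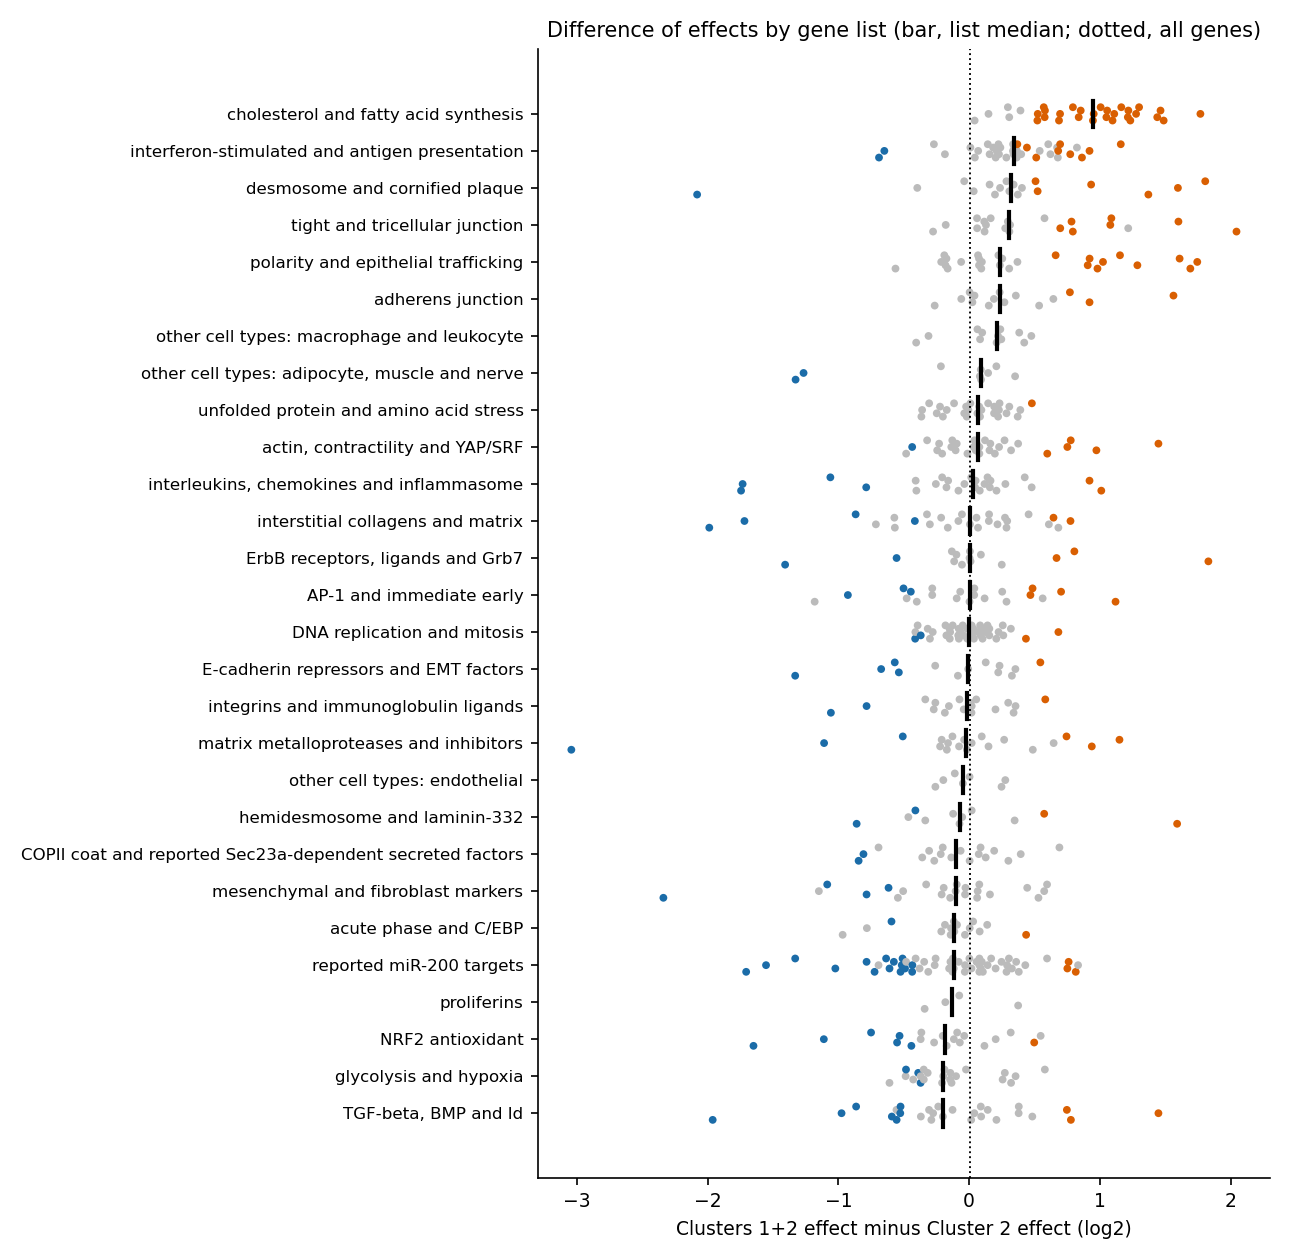
Difference of effects in log2 for every tested gene of 28 gene lists, with orange points called higher, blue points called lower and grey points not called; the black bar is the median of a list and the dotted line that of all genes. The cholesterol and fatty acid list stands farthest to the right with a median of 0.95, and the single blue point of the desmosome list is Krt7.

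Of the repressors, Zeb2 read 0.75 and 0.78 in Hygro vec, -0.04 and 0.03 with Cluster 2, 0.68 and 0.79 in the double vector control, and -1.34 and -1.39 with Clusters 1+2. The controls matched, and each added cluster gave a lower level without overlap. Its difference of effects was -1.33 (-1.56 to -1.10, adjusted p = 1.45e-05), at a probe at chr2:44995859-44995918 in mm7. Of the other Zeb2 probes, 3 gave -0.70, -0.17 and -1.46, with -0.17 not called, and a dim probe above background on 3 arrays gave 0.04. Zeb1 had no called change: its difference was 0.33 with an interval from -0.34 to 1.00 (adjusted p = 0.623), which is too wide to place it. Of the 13 genes tested in the list of E-cadherin repressors and transition factors, 4 were called lower and 1 higher, with a median of -0.0069. Snai1 had -0.57 (adjusted p = 0.0173), Tcf3 -0.54 (adjusted p = 0.0263) and Tcf4 -0.67 (adjusted p = 0.00292), and none of the 3 was called with Cluster 2. Foxc2 was the gene called higher, with 0.55 (adjusted p = 0.0461). It lost the call with the repeat letter as a block (adjusted p = 0.0538) and was well above background on at most 1 array of each group. Over the 9 other settings 0 genes of this list were higher and 1 to 4 lower.

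Genes reported elsewhere as miR-200 targets had 15 of 57 lower and 3 higher, with a median of -0.12. The same list had 5 lower and 1 higher with Cluster 2, and 25 lower and 5 higher with Clusters 1+2. Of all genes, 1.07% were lower and 1.77% higher with Cluster 2, and 12.8% lower and 12.1% higher with Clusters 1+2. Flt1, a receptor for VEGF, read 1.01 and 1.00 in Hygro vec, 0.18 and 0.25 with Cluster 2, 0.96 and 0.85 in the double vector control, and -1.48 and -1.39 with Clusters 1+2. The levels descended in clear steps, and the difference was -1.55 (-1.76 to -1.34, adjusted p = 5.01e-06). Notch1, a receptor of cell fate signalling, had a difference of -1.71 (adjusted p = 5.01e-06), with effects of -0.65 and -2.35. Its ligand Jag1, also in the list, had 0.76 (adjusted p = 0.00299), so receptor and ligand differed in direction. Over the 9 other settings 3 to 22 of these genes were lower and 0 to 5 higher, and the median stayed between -0.39 and -0.03. Sec23a, the coat protein of vesicles leaving the endoplasmic reticulum, had an effect of -1.20 with both clusters (adjusted p = 4.86e-05) and a difference of -0.69 (-1.14 to -0.25, adjusted p = 0.0701) that was not called, nor was a second probe at -0.57. Of proteins said to depend on Sec23a for secretion, Igfbp4 had -0.84 (adjusted p = 0.0067), with a second probe at -0.53 (adjusted p = 0.0753), and Tinagl1 had -0.36 (adjusted p = 0.137).

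Matrix and stromal genes held the largest single drop. Mmp3, the protease stromelysin-1, read 3.30 and 3.30 in Hygro vec, 2.27 and 2.10 with Cluster 2, 3.38 and 3.39 in the double vector control, and -0.80 and -0.74 with Clusters 1+2. The controls were level with each other, Cluster 2 was about 1 log2 unit lower, and both clusters lay under the reference RNA. The difference was -3.04 (-3.35 to -2.74, adjusted p = 6.4e-07), an 8.24-fold further loss, at chr9:7453874-7453933 in mm7. Mmp10, a related stromelysin, was newly responding (-1.11, adjusted p = 0.0135). Adamts1, another secreted protease, was newly responding in the other direction (1.15, adjusted p = 6.65e-05), with an effect of Cluster 1 alone of 0.42 (adjusted p = 0.00514) and a second probe at a difference of 0.79. The protease list as a whole was split, with 3 of 20 higher and 3 lower. Col6a3, a collagen VI chain, had -1.72 (adjusted p = 0.000715), and Col9a1, a collagen IX chain, had -1.99 (adjusted p = 0.0053), with neither array of Clusters 1+2 well above background for Col9a1.

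Of 23 mesenchymal and fibroblast markers, 4 were called lower and 0 higher, namely Mgp, Pdgfra, Vcam1 and Sparc. Their median was -0.10, and over the 9 other settings it ran from -0.40 to 0.04, so the list has no settled direction. Mgp, matrix Gla protein, read -0.21 and -0.15 in Hygro vec, -0.62 and -0.55 with Cluster 2, 0.37 and 0.51 in the double vector control, and -2.45 and -2.17 with Clusters 1+2. The double vector control was the highest group, which adds to the difference of -2.34 (-2.67 to -2.01, adjusted p = 5.01e-06). Pdgfra, a growth factor receptor of stromal cells, had -1.08 and Vcam1, an adhesion receptor for leukocytes, -0.78 at their brightest probes, and second probes gave 0.04 and -0.15. Sparc, a matrix glycoprotein, had -0.62 (adjusted p = 0.0486). Vim, vimentin, had -0.54 (-1.02 to -0.07, adjusted p = 0.184) with 1 array of Cluster 2 missing, and Fn1, fibronectin, had -0.03 (-0.34 to 0.28, adjusted p = 0.941).

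Among inflammatory genes, Casp1, the protease that activates interleukin 1, read 1.27 and 1.11 in Hygro vec, 0.44 and 0.37 with Cluster 2, 1.45 and 1.34 in the double vector control, and -1.20 and -1.09 with Clusters 1+2. Each level was clear of the next, and the difference was -1.74 (adjusted p = 9.76e-06). Il33, an alarmin, had effects of -1.51 with Cluster 2 and -2.58 with both, a difference of -1.06 (adjusted p = 0.00179). Cx3cl1, a membrane-bound chemokine, had -0.79, whereas Ccl20 and Cxcl10, both secreted chemokines, had 1.01 and 0.92. The interleukin and chemokine list had 2 of 26 higher and 4 lower.

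Signalling lists were divided. In the list of TGF-beta, BMP and Id genes 3 of 27 were higher and 7 lower. All 4 Id genes were lower, Id1 with -0.86, Id2 with -1.96, Id3 with -0.55 and Id4 with -0.98, and only Id2 was newly responding. Smad7, an inhibitor of the pathway, was also lower at -0.59, while Ccn2, a matricellular growth factor, was higher at 1.45 (0.96 to 1.94, adjusted p = 0.00186). Ccn2 and Ccn1 (0.97, adjusted p = 0.00243) and Ankrd1 (0.78, adjusted p = 0.000299) are targets of YAP, and the actin, contractility and YAP list had 5 of 30 higher and 1 lower. In the ErbB list, Grb7, an adaptor that binds ErbB receptors, had effects of 1.76 with Cluster 2 and 3.59 with both, a difference of 1.83 (adjusted p = 0.000598). Btc, betacellulin, an ErbB ligand, had -1.41 (adjusted p = 0.000868) and was at least 2.02-fold lower with both clusters than in the double vector control. Among immediate early genes Dusp6, a phosphatase that restrains ERK, had -0.93, Jund 1.12 and Myc 0.70, and 4 of 21 were higher and 3 lower. Glycolysis and hypoxia genes had 0 of 23 higher and 3 lower. Replication and mitosis genes had 2 of 42 higher and 2 lower, and unfolded protein and amino acid stress genes 1 of 28 higher and 0 lower, shares near those of all genes.

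Few genes had levelled off with Cluster 2. A gene was placed in this class when Cluster 2 moved it at least 2-fold and the 95% interval of the difference of effects lay within 1.5-fold of 0. Of 67 genes that Cluster 2 moved 2-fold, 39 went further in the same direction with both clusters and 3 went back. A further 8 levelled off (0.0425% of all genes tested), and 17 could not be placed. In those 17 the difference was not called and its interval reached past 1.5-fold. Some of these intervals lay wholly above 0, as for Kank3 (0.12 to 0.70), and others spanned 0, as for Plek2 (-0.70 to 0.57). The 8 levelled-off genes were Aqp8, Chil1, Gcnt2, Pkp1, Gpa33, Dppa5a, Eya2 and Itgb4. All 8 had been raised by Cluster 2, but so had 62 of the 67, with 5 lowered, so the direction is not particular to the class. The class depends on the width allowed, with 0 genes at a narrower width and 25 at 2-fold. Aqp8 and Gcnt2 had the widest intervals inside, with a bound 0.53 from 0, and Il24 (0.64) and Plek2 (0.70) lay just outside.

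Aqp8, a water channel of epithelia, read 0.27 and -0.04 in Hygro vec, 2.06 and 1.97 with Cluster 2, 0.81 and 0.49 in the double vector control, and 2.51 and 2.27 with Clusters 1+2. Both clusters stood slightly over Cluster 2, and the double vector control stood slightly over Hygro vec, so the effects were alike at 1.90 and 1.74. The difference for Aqp8 was -0.16 (-0.53 to 0.21), and the probe lies at chr7:119570588-119570647 in mm7. Itgb4, the integrin of hemidesmosomes, read 1.21 and 1.06, 2.19 and 2.09, 1.44 and 1.40, and 2.47 and 2.24, with a difference of -0.07 (-0.39 to 0.24). Pkp1, plakophilin 1 of desmosomes, had 0.16 (-0.18 to 0.49), and Dppa5a, an RNA-binding protein of embryonic cells, had 0.01 (-0.40 to 0.42). Chil1, a chitinase-like secreted protein, was well above background on no Hygro vec array and was at least 4.14-fold higher with Cluster 2 (adjusted p = 6.06e-06), so its difference of effects cannot be read as exact. Only Aqp8, Pkp1, Dppa5a and Itgb4 were well above background on all 8 arrays, and the place of the other 4 in the class is uncertain.

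In a small set the response to Cluster 2 was weaker or gone with both clusters. The 16 genes of this class (0.085%) had a called effect of Cluster 2 and a called difference of effects in the opposite direction, 8 after a rise with Cluster 2 and 8 after a fall. Krt7 is among them although both clusters still raised it (effect 2.11). The difference of effects subtracts the effect of Cluster 2 from the same arrays, so the class is a description. The class was unstable to single arrays, growing to 252 genes without Hygro vec repeat A and to 227 without Cluster 2 repeat A. Gsta1, a glutathione transferase, read -1.21 and -1.34 in Hygro vec, 0.14 and 0.00 with Cluster 2, -0.57 and -0.76 in the double vector control, and -0.92 and -1.02 with Clusters 1+2. Cluster 2 was the highest group, and the double vector control was itself higher than Hygro vec. The difference was -1.65 (-2.41 to -0.89, adjusted p = 0.0135), and Gsta2, a closely similar copy whose probe may share signal, had -1.11 (adjusted p = 0.000364). In the list of antioxidant genes driven by NRF2, 6 of 20 were lower and 1 higher.

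Interferon-stimulated genes supplied 4 of the 8 genes of this class that fell with Cluster 2. Rtp4, an interferon-induced chaperone of receptors, read -0.95 and -0.81 in Hygro vec, -1.67 and -1.62 with Cluster 2, -1.05 and -1.16 in the double vector control, and -0.80 and -0.62 with Clusters 1+2. Cluster 2 was the lowest group without overlap, and the Clusters 1+2 arrays reached or passed the upper edge of the controls. The difference for Rtp4 was 1.16 (standard error 0.156, adjusted p = 0.000715), at chr16:23271913-23271972 in mm7. Ifi27 had 0.68 (adjusted p = 0.00402) with a second probe at 0.28, Oasl2, an oligoadenylate synthase-like protein, had 0.51 (adjusted p = 0.0134), and Isg15, a ubiquitin-like modifier, had 0.44 (adjusted p = 0.0169). The files place the Isg15 probe on chromosome 17 and RefSeq the gene on chromosome 4, so a related copy cannot be told apart. Zbp1, a sensor of nucleic acid, also in the class although not in the list, had 0.44 (adjusted p = 0.025). The interferon and antigen presentation list had 1 of 38 higher and 9 lower with Cluster 2, and 9 higher and 2 lower in the difference of effects. The difference subtracts the effect of Cluster 2, so opposite directions are partly built in. With Clusters 1+2 against the double vector control the list had 12 higher and 7 lower, against 12.1% and 12.8% of all genes. In the difference of effects the 2 genes of the list called lower were Irf8 (-0.69) and Ifi203 (-0.65). Over the 9 other settings 1 to 13 were higher and 0 to 4 lower. Isg20, an exonuclease, went up with Cluster 2 (0.88) and further with both (difference 0.77, adjusted p = 0.00667), against the trend of that list with Cluster 2.

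Cluster 1 alone gave a way to ask whether the difference of effects is what Cluster 1 does on its own. Against its Puro vec control it called 1567 genes (8.31%), 922 higher (4.89%) and 645 lower (3.42%). The arrays of Cluster 1 and of this control all carried the sample in Cy5 and lay on slide 4, so dye and slide did not differ between them. When the Cluster 1 effect is set beside the 8 Cy3 arrays, dye, slide and cell line cannot be told apart. In the reference channel alone, which should carry no effect, Cluster 1 against its Puro vec control called 399 genes. The reference channel called 3 for Cluster 2 and 4 for Clusters 1+2, so part of the Cluster 1 calls may not come from the samples. Of 51 genes raised at least 2-fold by Cluster 1, 27 had a called difference of effects in the same direction and 2 in the other. The medians of these 51 were 1.24 with Cluster 1, 0.78 with Cluster 2, 1.31 with both, and 0.57 for the difference of effects. The 51 were chosen by their effect of Cluster 1, so a smaller median for the difference is partly built in. Of 9 genes lowered at least 2-fold, 5 had a called lower difference. Grb7 gained 1.88 with Cluster 1 and 1.83 from adding Cluster 1 to Cluster 2, and Epcam 1.40 and 1.56. Adgrg1, by contrast, had 0.06 with Cluster 1 alone and -2.90 as a difference of effects (departure -2.97, adjusted p = 2.96e-05). Lsr had 2.22 with Cluster 1 and 1.09 as a difference of effects (departure -1.13, adjusted p = 0.00976), and Perp 1.94 and 0.93 (departure -1.01, adjusted p = 0.000664). Both had the smaller value as a difference of effects, across arrays that differ in dye and slide.

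**Figure D5:**
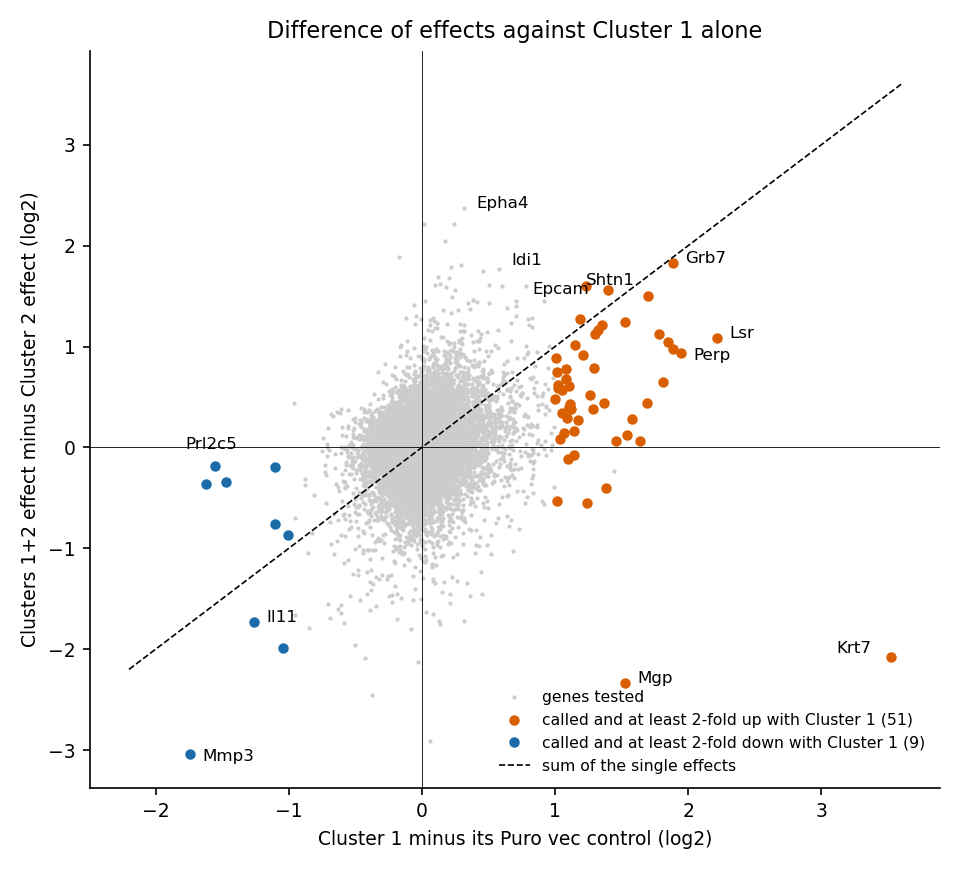
Each point is a gene, with the effect of Cluster 1 over its Puro vec control on the horizontal axis and the difference of effects on the vertical axis, both in log2; points on the dashed line equal the sum of the single effects. Orange marks the 51 genes raised at least 2-fold by Cluster 1, most of them under the line, and blue the 9 genes lowered. Both sets were chosen by their value on the horizontal axis, which by itself favours smaller values on the vertical axis. Grb7 and Epcam lie near the line, Epha4 and Idi1 above it, Mgp and Krt7 far under it, and Krt7 rests on 1 array of the double vector control.

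The departure of both clusters from the sum of the single effects was tested as the difference of effects minus the effect of Cluster 1. It was called in 726 of 18804 genes (3.86%), 265 higher (1.41%) and 461 lower (2.45%). In 585 of them Clusters 1+2 was called and went beyond the sum in the direction of its own effect, and in 42 it fell short. In 99 Clusters 1+2 was not called. The departure contains the effect of Clusters 1+2, so a shared direction is partly built in. The cholesterol and fatty acid list had 13 of 32 higher and 0 lower in this test. Cyp51 departed by 1.26 (adjusted p = 0.000685), Idi1 by 1.19 (adjusted p = 0.00227), Hsd17b7 by 1.16 (adjusted p = 0.000277) and Il17d, a secreted interleukin, by 1.21 (adjusted p = 0.0157). In the other direction Slc14a1, a urea transporter, departed by -2.07 (adjusted p = 0.000334) and S100a8, a calcium-binding protein of inflammation, by -1.85 (adjusted p = 0.000279). Mgp had the largest departure apart from Krt7, -3.87 (adjusted p = 4.88e-07), and Cluster 1 alone had raised it by 1.53 against its own Puro vec control.

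That test depends on the Puro vec control chosen. The series holds a second Puro vec control, made for CDH1 and hybridised on another slide with the same dye. With it 744 genes departed from the sum, and 369 were called with both controls in the same direction and 7 in opposite directions. For S100a8 the departure was then -0.16 (adjusted p = 0.729), for Mgp -2.54 (adjusted p = 1.46e-05), for Slc14a1 -3.26, for Cyp51 1.19 and for Idi1 0.81 (adjusted p = 0.0185). That Mgp value lies near its difference of effects, -2.34, so most of the rise of 1.53 with Cluster 1 alone was lost with the second control. In the sterol list 20 of 32 were higher and 0 lower with it. The proliferins Prl2c5 and Prl2c3, secreted growth factors encoded by near-identical copies, departed by 1.38 and 1.14 with the first control and by 0.45 (adjusted p = 0.15) and 0.30 (adjusted p = 0.453) with the second. Cluster 1 raised 15 of 38 interferon genes and lowered 0 with its own control, and raised 2 and lowered 5 with the other.

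Of the markers of the line itself, Cdh1 and Epcam were well above background on all 8 arrays, vector controls included. Markers of cell types that a culture of a single line should not hold were mostly dim. Of 12 macrophage and leukocyte markers 3 were well above background in all 4 groups and 0 were called in the difference of effects. Of 7 endothelial markers tested 0 were above background in all 4 groups and 0 were called, and Pecam1 and Cdh5, which mark the vessel lining, were on no array. In the list of adipocyte, muscle and nerve markers 2 of 9 were lower. Fabp4, a fatty acid carrier, had -1.27 (adjusted p = 0.000809), and Myh1, a myosin, had -1.33 with a second probe at -0.11. In a bulk sample fewer cells of a type and less RNA per cell cannot be told apart.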

How the data were processed

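RNA from 4TO7 cells (175 ng total RNA per labelling) was hybridised with reference RNA to 2-colour Agilent arrays, scanned with Feature Extraction 9.5.3.1 per the file headers. Per the file headers, the deposited intensity columns are mean spot and median background signals, and the deposited processed intensity is background-subtracted and dye-normalised. The deposited log10 ratio is Cy5 over Cy3, and the deposited series table holds a linear ratio of the processed signals of sample over reference, so its scale and direction are known. Probe positions are those of build mm7 in the files.

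With limma 3.58.1 in R 4.3.3, signals were background-corrected by normexp (offset 50) and loess-normalised within arrays, after marked outlier spots were set missing. Probes well above background on both arrays of at least 1 group were kept, and the brightest probe stood for a gene. Group means of 8 groups were fitted to 16 arrays with empirical Bayes, and p-values were adjusted by Benjamini-Hochberg over all genes. The number of arrays limits the precision. On simulated data for 18795 genes, changes of 0.5, 1 and 2 in log2 were recovered at 26.9%, 88.1% and 98.5%, and 7 of 149 calls were false. Simulated noise was independent for each array, without shared slide deviations, marked spots or a background floor. These rates therefore need not hold for the measured arrays.

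Among the 8 Cy3 arrays, those with the same repeat letter share a slide. Their deviations correlated at 0.247 to 0.427 in all 6 pairs of groups, so the repeat letter was tried as a block. For the Cy5 arrays both letters of a group lay on 1 slide, so the letter does not stand for the slide there. Members and gene lists were chosen with earlier results of these data known. Named genes were the 15 largest differences in each direction among genes with a symbol and enough signal, 8 per class, the 6 largest departures from the sum in each direction, up to 4 called members per list and 11 fixed genes. A few genes are not reported here. Other list members were named after their values were seen. Alternatives were the block, background, normalisation, filters, probes, channels and each array left out.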

Additional observations from a re-analysis of the deposited data

Results flagged for a closer look

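Of the 16 genes whose effect of Cluster 2 and difference of effects were both called with opposite signs, 8 were chosen for naming by their signal and the size of the Cluster 2 effect. The differences of effects were 1.16 for Rtp4, 0.68 for Ifi27, 0.51 for Oasl2, 0.44 for Isg15, 0.44 for Zbp1, 0.69 for Idh1, an isocitrate dehydrogenase, -0.53 for Ltbp2, a matrix protein that binds latent TGF-beta, and -1.65 for Gsta1. A second probe for Ifi27 gave 0.28 and a second probe for Ltbp2 gave -0.23.

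For 7 named genes the effect of Cluster 1 against its own Puro vec control and that of Clusters 1+2 were both called with opposite signs. The departure from the sum was called too. The departures were -3.87 for Mgp, -1.58 for Il33, -1.31 for Gstm1 and -1.32 for Gstm2, both glutathione transferases, -1.12 for Egln3, an oxygen sensor, -0.92 for Egr2, a zinc finger factor, and -1.91 for Selenbp2, a selenium-binding protein. With the other Puro vec control they were -2.54 for Mgp (adjusted p = 1.46e-05), -1.22 for Il33 (adjusted p = 0.00447), -0.65 for Egln3 (adjusted p = 0.0062) and -0.66 for Gstm2 (adjusted p = 0.0242). Gstm1 then had -0.43 (adjusted p = 0.0611), Egr2 -0.38 (adjusted p = 0.14) and Selenbp2 -0.16 (adjusted p = 0.767). These last departures were smaller in size than the differences of effects of Gstm1, Egr2 and Selenbp2 (-0.75, -0.50 and -1.45). With this control their Cluster 1 effect was thus negative, like that of Clusters 1+2. For Mgp, Il33, Egln3 and Gstm2 the departures were only a little larger than the differences (-2.34, -1.06, -0.48 and -0.55), so their Cluster 1 effect stayed positive but small. A second Gstm1 probe gave a difference of effects of -0.01, and similar copies of these transferases may share signal.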

How the results depend on the processing

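With 2 arrays a group, single arrays and the treatment of dim or marked spots set how many genes were called, and the causes were not tested. The difference of effects was called in 714 genes with the 8 arrays fitted alone, 582 with an offset of 10, 272 with marked spots retained, 343 with processed values, 2388 with median centring, 118 with spreads scaled, 316 with the sample channel and 1 with the reference channel, and 823 to 1239 with each array left out. The departure from the sum gave 447, 69, 350, 1594, 207, 329 and 25 under the same settings from the offset on, and 446 to 814 with each array left out; it cannot be computed on the 8 arrays alone. The double vector control against Hygro vec gave 1 on the 8 arrays, 1 there with the replicate block, 2 with offset 10, 0 with marked spots retained (0 also with scaled spreads), 2 with processed values, 22 with median centring, 1 with the sample channel, 14 with genes above background on all 8 arrays and 4 with the mean over probes, and 2 to 348 with each array left out. In limma's main fit 1410 genes had an unadjusted p under 0.05 in that comparison. Clusters 1+2 directly against Cluster 2 gave 3004 genes (15.9%), and 1834 with offset 10, 1141 with marked spots, 1250 with processed values, 612 with scaled spreads, 967 with the sample channel, and 1719 to 3057 with each array left out.

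Newly responding genes numbered 80 with marked spots, 83 with processed values, 204 with median centring, 36 with scaled spreads and 83 above background on all 8 arrays, and 111 to 168 with each array left out. Levelled-off genes numbered 3 with offset 10, 1 with marked spots, 2 with processed values or scaled spreads, 4 with the sample channel or above background on all 8 arrays, and 4 to 8 with each array left out; a narrower interval gave 0 and that of 2-fold 25. Weaker genes numbered 7 on the 8 arrays, 10 with offset 10, 1, 4, 222, 2 and 4 with marked spots, processed values, median centring, scaled spreads and the sample channel, and 7 to 252 with each array left out. Stronger genes numbered 107, 122, 25, 59, 147, 17 and 55 under the same 7 settings, and 110 to 249 with each array left out. With the replicate block the difference of effects gave 1182 genes on 16 arrays and 987 on 8, of which 1113 of the 1188 were shared on 16 arrays. Foxc2 (adjusted p = 0.0538) and Ccnd1 (adjusted p = 0.055) lost the call with the block. Of 116 named genes called, 115 kept their direction in every alternative, and 19 kept the call in all of them; C130073F10Rik turned to -0.054 with processed values (adjusted p = 0.998).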
